A study of Mus musculus with 4 samples.

Results

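Somatostatin (Sst), secretin (Sct), cholecystokinin (Cck), the tachykinin precursor Tac1, proenkephalin (Penk), GIP (Gip), amylin (Iapp) and gastrin (Gast) are peptide genes of the gut, and their 8 gene rows were followed among the 23699 rows measured in mouse proximal colon. They were selected by gene symbol alone, and each had 1 row and 1 RefSeq transcript in every library. The mutant group comprised 2 libraries of genotype Nkx2.2flox/flox; Villin-Cre/+, in which Cre recombinase made under the Villin promoter acts in the gut epithelium. The control group comprised 2 libraries of genotype Nkx2.2flox/+, which carried a floxed allele as well but no Cre. All 4 came from mice 6 weeks old on a mixed strain, from a 2 cm piece of colon next to the caecum. Because no control carried Cre, loss of Nkx2-2 and presence of Cre cannot be told apart. The labels leave unsaid whether the 2 libraries of a genotype are 2 animals, and p-values here therefore reflect library-to-library spread, which may be technical.

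Peptide hormones of the gut are made by enteroendocrine cells, single secretory cells scattered in the epithelium, as large precursors that are cut into active peptides and stored in granules. Several of the same precursors are also made by neurons in the gut wall. Somatostatin, from D cells and some enteric neurons, restrains the release of other hormones. Secretin drives bicarbonate secretion, cholecystokinin drives gallbladder contraction and pancreatic enzyme release, and GIP strengthens the insulin response to a meal. Tac1 encodes substance P and neurokinin A, which enterochromaffin cells and excitatory enteric neurons release, and Penk encodes the opioid enkephalins of enteric neurons. Gastrin is the hormone of the stomach's G cells and amylin is best known from pancreatic beta cells. Nkx2-2, the deleted gene, encodes an NK2-class homeodomain protein needed for making several endocrine cell types.

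The stretches just upstream of the start sites of Sst and Sct, the most abundant members, and of Tac1 and Cck, the members with the largest log2 changes, are printed to show how unlike they are in sequence. RefSeq promoter entries (table build GRCm38.p6) existed for 7 of the 8 members. The 250 bases before each RefSeq start were cut from them and matched exactly, and once each, to the mm9 assembly, the build of the deposited files. The Sst window is chr16:23890931-23891180, the Sct window chr7:148465033-148465282 and the Cck window chr9:121404813-121405062, all on the minus strand, and the Tac1 window is chr6:7504811-7505060 on the plus strand. Capitals mark matches on either strand to the cAMP response element TGACGTCA, to the NK2 homeodomain core TNAAGTG and to the E-box CANNTG, which basic helix-loop-helix factors bind. None of the marked matches overlap.
Sst: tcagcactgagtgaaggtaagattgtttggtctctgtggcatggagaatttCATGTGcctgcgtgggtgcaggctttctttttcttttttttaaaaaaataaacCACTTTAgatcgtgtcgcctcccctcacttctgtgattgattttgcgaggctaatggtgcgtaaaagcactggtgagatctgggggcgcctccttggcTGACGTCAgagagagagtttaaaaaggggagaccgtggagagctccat
Sct: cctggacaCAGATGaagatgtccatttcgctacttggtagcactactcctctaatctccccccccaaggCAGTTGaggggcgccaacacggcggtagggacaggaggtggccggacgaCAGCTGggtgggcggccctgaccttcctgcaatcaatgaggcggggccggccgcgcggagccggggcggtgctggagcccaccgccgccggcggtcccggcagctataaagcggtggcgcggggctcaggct
Tac1: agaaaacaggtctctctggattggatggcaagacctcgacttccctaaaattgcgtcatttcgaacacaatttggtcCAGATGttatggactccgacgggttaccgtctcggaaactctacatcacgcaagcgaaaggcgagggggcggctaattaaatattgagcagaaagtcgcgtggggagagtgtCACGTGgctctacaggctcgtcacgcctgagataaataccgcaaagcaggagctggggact
Cck: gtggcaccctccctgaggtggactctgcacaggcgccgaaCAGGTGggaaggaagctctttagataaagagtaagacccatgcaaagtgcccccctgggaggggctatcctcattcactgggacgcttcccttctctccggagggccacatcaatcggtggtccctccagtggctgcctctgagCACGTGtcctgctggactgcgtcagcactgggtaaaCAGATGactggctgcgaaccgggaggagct
Sst held the exact letters TGACGTCA at positions −48 to −41 counted back from the start. None of the other windows examined held them, and they occurred in 1.55% of 32851 promoter windows of the same length. Variant forms of the cAMP response element were not searched for. Sst also held 1 NK2 core, read on the minus strand at positions −146 to −140, against 10.1% of all windows. E-boxes numbered 1 in Sst, 3 in Sct, 2 in Tac1 and 3 in Cck, and 66.2% of all windows held at least 1. The GC content was 47.2% in Sst, 68.0% in Sct, 51.2% in Tac1 and 60.0% in Cck. These are letter matches in short windows, and no binding was measured.

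Levels were given as FPKM, which scales fragments by transcript length and library size, so levels of different genes can be set against each other per length. In all 4 libraries the order from the top was Sct, Sst, Tac1 and Penk. The 95% intervals of Sct and Sst met only in control 1, and those of Tac1 and Penk met in both mutants and in neither control. Over the 4 libraries Sct averaged 113.4 FPKM and Sst 63.7 FPKM, which placed them above 94.1% and 89.2% of the 13997 tested genes. Tac1 averaged 14.5 FPKM, Penk 10.7 FPKM, Iapp 4.27 FPKM and Cck 2.76 FPKM. Iapp and Cck changed places between libraries, and their intervals overlapped in all 4. Gip averaged 0.0670 FPKM and Gast was listed at 0 throughout. Together the 8 genes summed to 164.5 and 202.6 FPKM in the mutant libraries, against 203.6 and 267.1 FPKM in the control libraries.

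The libraries differed in ways that bear on low values. From the ratio of coverage to FPKM, depth relative to control 1 was 0.464 in mutant 1, 1.03 in mutant 2 and 1.13 in control 2. From the width of the authors' 95% intervals the fragments behind a value can be counted, and such intervals cover counting error only. The targeted gene Nkx2-2 stood at 0.125 and 0.351 FPKM in mutants, against 0.724 and 0.609 FPKM in controls, below the 0.5 FPKM mean needed for testing. Control 1 stood apart in B cell genes, whose 8 markers summed to 15.1 and 12.3 FPKM in mutants, against 141.3 FPKM in control 1 and 10.3 FPKM in control 2. In T cells, 8 markers summed to 78.3 and 98.3 FPKM in mutants, against 223.0 and 142.8 FPKM in controls. The part of depth and of lymphoid cells in the results on the peptide genes was not tested.

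The comparison of mutant with control colon asked which of these peptide genes differ in RNA level between the genotypes. Of the 6 members above the minimum level, 0 passed at an adjusted p under 0.05 in limma, against 0.0643% of all tested genes (0.0286% lower and 0.0357% higher in mutants). At an unadjusted p under 0.05, 2 (Tac1 and Cck) were lower in mutants, against 4.12% of all tested genes, and 0 were higher, against 0.7%. By the authors' deposited table, 0 of the 8 had an adjusted p under 0.05, against 0.0384% of the 20834 genes with an adjusted p there.

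Both mutant libraries lay below both controls in 4 of the 6 (Sst, Cck, Tac1 and Penk), against 35.1% of all tested genes, and above both in 0, against 3.39%. Changes of all tested genes were offset too, with a median of −0.17 on the log2(FPKM + 0.5) scale and 82.6% of them below 0. Median ratio rescaling brought that median to −0.01 and the share below 0 to 51.4%. After it the same 4 members lay below both controls, against 16.2% of all tested genes, 1 (Tac1) had an unadjusted p under 0.05, against 1.87%, and 0 passed, against 0.0214%. Leaving out mutant 1 or control 2 gave those same 4, against 42.5% and 59.3% of all tested genes. Leaving out mutant 2 added Iapp (5 members, against 73.8%), and leaving out control 1 added Iapp and Sct (6 members, against 49.1%).

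**Figure D1:**
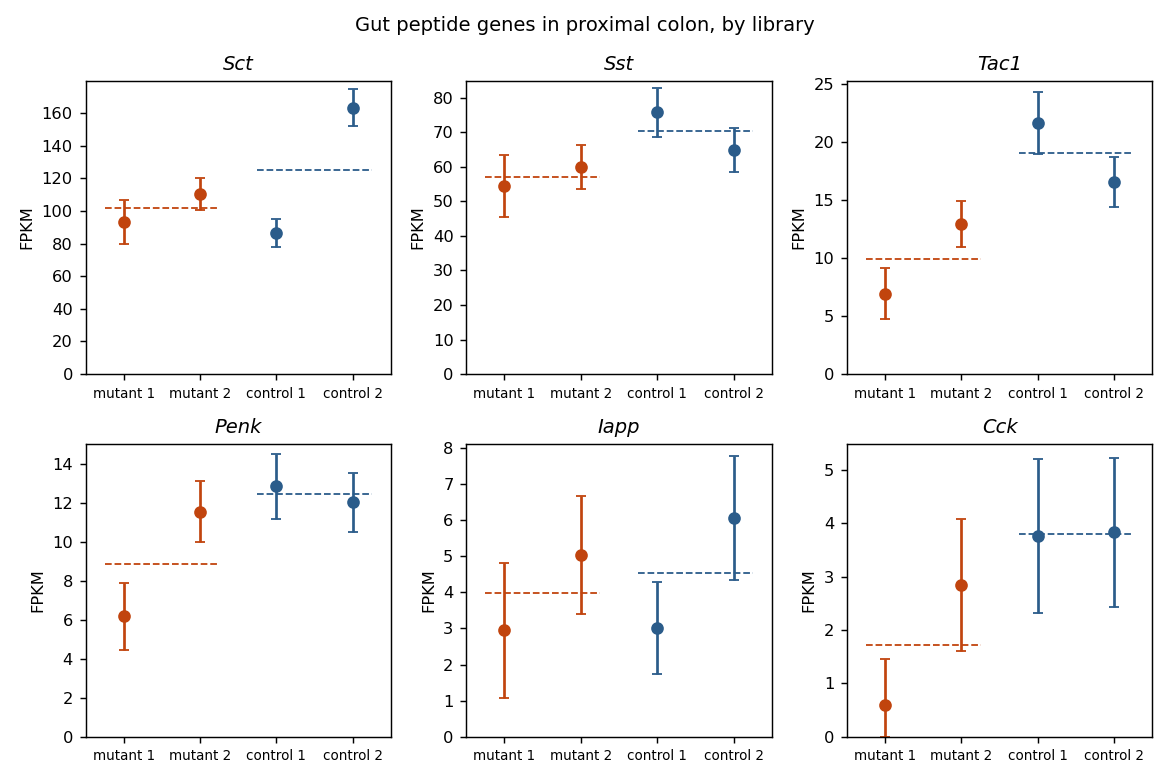
FPKM of the 6 tested gut peptide genes in each library (mutant libraries left, control libraries right), with the authors' 95% interval as bars and each group's mean as a dashed line; every axis starts at 0. Both mutant points lie under both control points in Sst, Tac1, Penk and Cck, and the groups overlap in Sct and Iapp.

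Among the hormones of epithelial endocrine cells, somatostatin RNA stayed abundant in the mutants. Sst (chromosome 16, 23889667 to 23890930, mm9) had 54.4 and 59.9 FPKM in mutants, against 75.8 and 64.9 FPKM in controls. These values rest on 148 and 362 fragments in mutants and 444 and 429 in controls. Both mutant values lay under both controls, but the intervals of both mutants (45.5 to 63.3 and 53.6 to 66.2 FPKM) reached that of control 2 (58.6 to 71.2 FPKM). The means were 57.2 ± 3.89 FPKM in mutants and 70.3 ± 7.70 FPKM in controls (SD, n = 2 each). The log2 change was −0.29 (SE 0.18, 95% interval −0.71 to 0.12, limma adjusted p = 0.825), so the interval ran from 1.63-fold lower to 1.08-fold higher. Relative to the median of all genes it was −0.13, and after rescaling −0.12 (interval −0.41 to 0.16).

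Secretin was the most abundant of the peptides, and its controls lay far apart. Sct (chromosome 7, 148464237 to 148465030) had 93.4 and 110.3 FPKM in mutants, against 86.5 FPKM in control 1 and 163.5 FPKM in control 2. Both mutant values lay between the controls, whose 95% intervals (77.7 to 95.3 and 152.1 to 174.9 FPKM) did not meet. The means were 101.9 ± 12.0 FPKM in mutants and 125.0 ± 54.4 FPKM in controls (SD, n = 2 each). The log2 change was −0.23 (SE 0.28, interval −0.88 to 0.42, limma adjusted p = 0.835). Its direction rested on the controls, with a log2 change of −0.68 without control 1 and 0.23 without control 2. Sct made up 56.8% and 54.5% of the summed FPKM of the 8 genes in mutants, against 42.5% and 61.2% in controls.

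Cholecystokinin was scarce, and mutant 1 carried most of its difference. Cck (chromosome 9, 121398942 to 121404807) had 0.601 and 2.84 FPKM in mutants, against 3.77 and 3.83 FPKM in controls. The values rest on 2 and 21 fragments in mutants, and 27 and 30 in controls. Mutant 2 overlapped both controls in its interval (1.60 to 4.08 FPKM, against 2.32 to 5.21 and 2.43 to 5.23 FPKM), and the interval of mutant 1 ran from 0 to 1.45 FPKM. The means were 1.72 ± 1.58 FPKM in mutants and 3.80 ± 0.0473 FPKM in controls (SD, n = 2 each). The log2 change was −1.16 (SE 0.46, interval −2.21 to −0.12, limma adjusted p = 0.825, unadjusted 0.0330). Without mutant 1 it was −0.36 (adjusted p = 1), and without mutant 2 it was −1.97 (adjusted p = 0.311).

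Amylin RNA was low in every library, and its groups overlapped. Iapp (chromosome 6, 142246945 to 142252339) had 2.95 and 5.04 FPKM in mutants, against 3.01 and 6.06 FPKM in controls, from 10 and 38 fragments in mutants and 22 and 50 in controls. Mutant 1 and control 1 were the low libraries. The log2 change was −0.14 (SE 0.35, interval −0.94 to 0.67, limma adjusted p = 0.907), so the interval ran from 1.92-fold lower to 1.59-fold higher. After rescaling the log2 change was 0.02 (interval −0.88 to 0.92), and the sign also turned without mutant 1 (0.21) and without control 2 (0.32).

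GIP and gastrin were at or near 0. Gip (chromosome 11, 95885859 to 95892142) was listed at 0 in both mutants and in control 1, and had 0.268 FPKM in control 2, from 2 fragments and with an interval of 0 to 0.647 FPKM. Gast (chromosome 11, 100195726 to 100198310) was listed at 0 FPKM in all 4 libraries. The authors' deposited table gave mean normalized counts of 1.03 in mutants and 0.741 in controls for Gip, and of 1.03 in mutants and 0 in controls for Gast. Neither gene was tested here and no fold is given. Markers of the organs known for these hormones were set beside them. Of 10 stomach markers 1 (Tff2, a mucosal peptide) was above the minimum, and the 10 summed to 2.15 and 1.36 FPKM in mutants, against 0.332 and 1.802 FPKM in controls. Of 8 pancreas markers 1 (Cela1, an elastase-family protease) was above it, at 30.1 and 22.5 FPKM in mutants, against 29.1 and 33.7 FPKM in controls. Cpa1 and Amy2a5 were at 0 in every library. Of 9 small intestine markers 8 were above the minimum and 0 passed in limma (0 at an unadjusted p under 0.05). Their levels were uneven. The fatty acid carrier Fabp2 led at 732.6 and 808.3 FPKM in mutants, against 433.7 and 766.9 FPKM in controls. Apoa4 and Apoa1, named after their values were seen, were high in control 2 alone. Apoa4 had 0.0981 and 0.0442 FPKM in mutants, against 0.137 FPKM in control 1 and 5.33 FPKM in control 2. Apoa1 had 0.553 and 1.58 FPKM in mutants, against 0.257 FPKM in control 1 and 8.96 FPKM in control 2. Fabp2, Fabp6 and Rbp2 were instead highest in a mutant library. The marker below the minimum was the lactase gene Lct, named after its values were seen. It had 0.0720 and 0.0324 FPKM in mutants, against 0.0557 and 0.0494 FPKM in controls.

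Among the precursors shared with neurons, Tac1 had the smallest p of the members. Tac1 (chromosome 6, 7505071 to 7512973) had 6.94 and 12.96 FPKM in mutants, against 21.7 and 16.6 FPKM in controls. The values rest on 40 and 166 fragments in mutants, and 268 and 231 in controls. Both mutant values lay under both controls, and the interval of mutant 1 (4.74 to 9.13 FPKM) met no other library's, while that of mutant 2 (10.9 to 15.0 FPKM) met that of control 2 (14.4 to 18.7 FPKM). The means were 9.95 ± 4.26 FPKM in mutants and 19.1 ± 3.61 FPKM in controls (SD, n = 2 each). The log2 change was −0.96 (SE 0.30, interval −1.64 to −0.28), a level 1.94-fold lower, and ranked 150th by p among 13997 genes (limma adjusted p = 0.825, unadjusted 0.0113). After rescaling it was −0.79 (interval −1.42 to −0.16, unadjusted p = 0.0222). Without control 2 it passed (log2 change −1.15, adjusted p = 0.0470), in a comparison where 2.59% of all genes passed, 1.95% lower in mutants. Without mutant 1 it was −0.53 (adjusted p = 1), without mutant 2 −1.39 (0.311) and without control 1 −0.77 (1).

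Proenkephalin was low in mutant 1, while mutant 2 lay close to the controls. Penk (chromosome 4, 4060683 to 4065592) had 6.18 and 11.6 FPKM in mutants, against 12.9 and 12.0 FPKM in controls, from 52 and 216 fragments in mutants and 233 and 246 in controls. The interval of mutant 1 (4.47 to 7.90 FPKM) met no other, and that of mutant 2 (9.99 to 13.1 FPKM) covered the values of both controls. Between groups the log2 change was −0.53 (SE 0.28, interval −1.18 to 0.12, limma adjusted p = 0.825). It was −0.10 without mutant 1 and −0.95 without mutant 2.

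**Figure D2:**
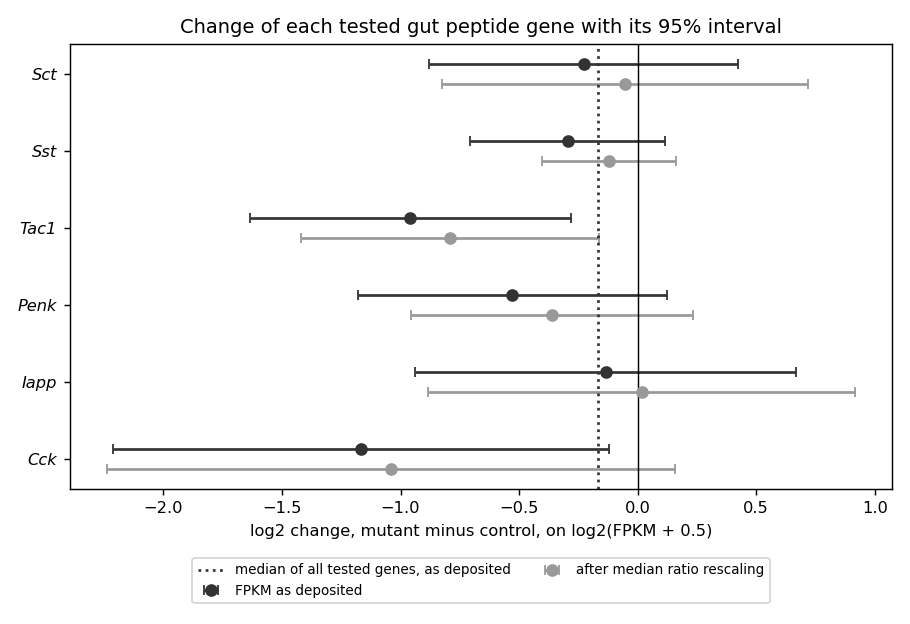
Log2 change (mutant minus control, on the log2(FPKM + 0.5) scale) of each tested gut peptide gene with its 95% limma interval, as deposited (dark) and after median ratio rescaling (grey); the dotted line is the median of all tested genes as deposited, −0.17. The intervals of Tac1 and Cck as deposited lie below 0, and those of Sct, Sst, Penk and Iapp include it.

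**Figure D3:**
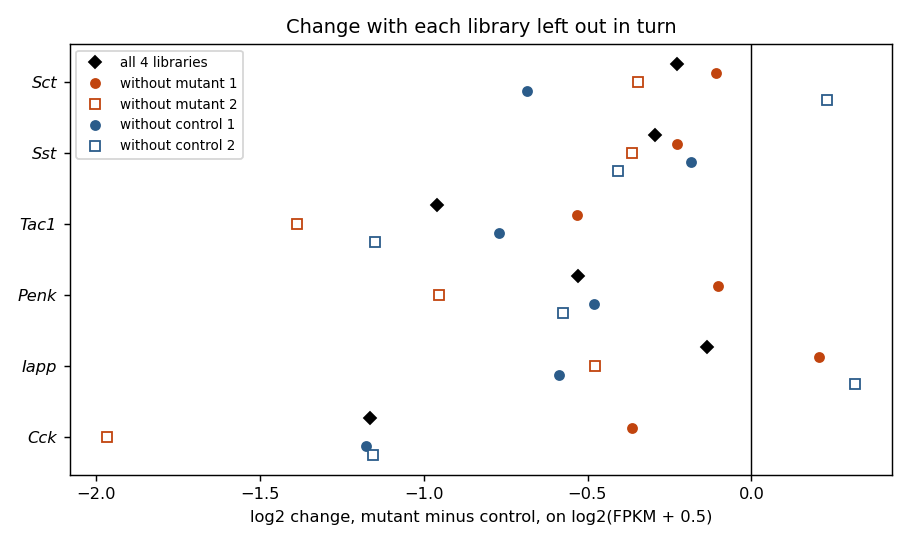
Log2 change (mutant minus control) of each tested gut peptide gene with all 4 libraries and with each library left out in turn. Tac1, Penk and Cck lie nearest to 0 without mutant 1 (−0.53, −0.10 and −0.36), and Sct and Iapp lie above 0 without control 2 (0.23 and 0.32).

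Ratios within a library do not depend on how libraries were scaled. Tac1 stood at 0.128 and 0.216 of Sst in mutants, against 0.286 and 0.255 in controls. Penk stood at 0.114 and 0.193 of Sst in mutants, against 0.170 and 0.185 in controls. Cck stood at 0.0110 and 0.0474 of Sst in mutants, against 0.0497 and 0.0591 in controls. For Tac1 and Cck the mutant ratios lay under both control ratios, with mutant 2 close to control 1 for Cck. For Penk the groups overlapped, as they did for Iapp and Sct against Sst. How many of all genes lie apart on such a ratio was not measured. These ratios were not tested.

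The summed FPKM of enteric neuron markers was lowest in mutant 1, as were Tac1, Penk and Cck and also Sst and Iapp. Mutant 1 by itself lay below both controls in 73.8% of all tested genes. Of 18 neuron markers 16 were tested and 0 passed in limma (4 at an unadjusted p under 0.05, all lower in mutants, against 4.12% of all tested genes). Changes were below 0 in 14 of the 16, close to the 82.6% of all tested genes, and their median log2 change was −0.43, against −0.17 for all tested genes (−0.30 against −0.01 after rescaling). Not all of them moved. The 2 above 0, named after their values were seen, were Nefm (log2 change 0.04) and Slc18a3 (0.05). Nos1 (−0.003) and Elavl4 (−0.07), also named after their values were seen, lay near 0 as well. The 18 summed to 33.4 and 53.8 FPKM in mutants, against 65.6 and 65.5 FPKM in controls, and none was at 0 in all libraries. The most abundant was Uchl1, a ubiquitin hydrolase of neurons, at 7.47 and 12.8 FPKM in mutants, against 18.3 and 15.2 FPKM in controls, followed by the neuronal tubulin regulator Stmn2 at 4.47 and 7.33 FPKM in mutants, against 8.89 and 8.16 FPKM in controls. Enteric glia markers had 7 of 7 changes below 0, against 82.6% of all tested genes, and sums of 7.11 and 7.43 FPKM in mutants, against 13.1 and 11.5 FPKM in controls. Of the 7 glia markers 0 passed in limma and 3 had an unadjusted p under 0.05 and were lower in mutants, against 4.12% of all tested genes, with the glial filament gene Gfap at 1.44 and 1.54 FPKM in mutants, against 2.92 and 2.26 FPKM in controls, and the glial receptor gene Gpr37l1 at 1.26 and 1.64 FPKM in mutants, against 2.73 and 2.79 FPKM in controls. In bulk tissue, fewer cells of a type and less RNA per cell cannot be told apart.

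Set against the summed neuron markers, Penk overlapped between groups, as did Sst, Sct and Iapp, and Tac1 and Cck did not. How many of all genes lie apart on this ratio was not measured. Penk amounted to 18.5% and 21.5% of that sum in mutants, against 19.6% and 18.4% in controls. Tac1 amounted to 20.8% and 24.1% in mutants, against 33.0% and 25.3% in controls, and both mutant values still lay under both controls, with mutant 2 close to control 2. Cck amounted to 1.797% and 5.28% in mutants, against 5.74% and 5.86% in controls. The part of neuron content in these results was not tested.

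**Figure D4:**
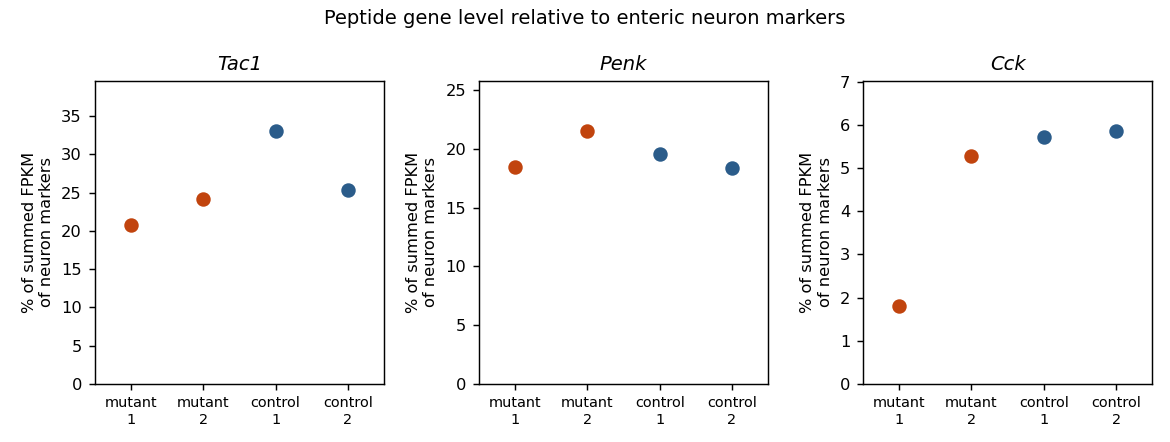
FPKM of Tac1, Penk and Cck as a percentage of the summed FPKM of 18 enteric neuron markers in each library (mutant libraries left, control libraries right; axes start at 0). Penk overlaps between groups, while mutant 1 is the lowest library for Tac1 (20.8%) and for Cck (1.797%).

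Genes on the lists of pathway and cell type genes with the most similar profiles were sought for each tested member, by Euclidean distance between log2(FPKM + 0.5) values centred on each gene's mean over the 4 libraries, among 120 other tested genes. For Tac1 the nearest were Uchl1 (distance 0.25) and the neuronal tubulin Tubb3 (0.33), against a median distance of 1.11. For Penk they were Stmn2 (0.14) and Tubb3 (0.19), against a median of 0.82, and for Cck they were Hand2 (0.49), a transcription factor of enteric neurons, and the synaptic gene Snap25 (0.61), against 1.53. The nearest to Sst were the intestinal transcription factor Cdx2 (0.09) and the neurofilament gene Nefl (0.12), and to Sct the neuropeptide gene Vip (0.23) and the chloride exchanger gene Slc26a3 (0.24). The nearest to Iapp were Sct (0.33) and neuromedin U (Nmu, 0.34). With 4 libraries such distances are a description only, and depth differences are shared by all genes of a library.

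Other hormone and granule genes held 5 of the 9 genes that passed, which made up 0.0643% of all tested genes. Of 10 other hormone and amine genes tested, 3 passed in limma. At an unadjusted p under 0.05, 3 were higher in mutants, against 0.7% of all tested genes, and 3 lower, against 4.12%. The most abundant were the guanylin gene Guca2a and the peptide YY gene Pyy. Guca2a had 1768 and 2162 FPKM in mutants, against 1820 and 2612 FPKM in controls. Pyy had 197.7 and 165.7 FPKM in mutants, against 57.2 and 96.7 FPKM in controls (limma adjusted p = 0.404, unadjusted 0.000923). The serotonin-synthesis gene Tph1 fell, at 0.354 and 1.40 FPKM in mutants, against 15.4 and 18.8 FPKM in controls (log2 change −3.79, adjusted p = 0.0140 in limma), and so did the colonic L cell peptide gene Insl5, at 0.903 and 0.677 FPKM in mutants, against 6.29 and 7.18 FPKM in controls. The ghrelin gene Ghrl rose, at 15.3 and 10.8 FPKM in mutants, against 2.09 and 2.23 FPKM in controls (log2 change 2.33, adjusted p = 0.0163 in limma). Of 14 tested granule and processing genes, 2 passed and both fell, and 7 had an unadjusted p under 0.05, all lower in mutants, against 4.12% of all tested genes. The granin gene Chga had 4.87 and 8.69 FPKM in mutants, against 43.4 and 69.8 FPKM in controls, and Chgb had 3.91 and 11.1 FPKM in mutants, against 68.7 and 97.8 FPKM in controls. The granule list had a median log2 change of −0.58. Sst stood at 11.2 and 6.89 times the FPKM of Chga in mutants, against 1.75 and 0.930 times in controls. Sct stood at 19.2 and 12.7 times the FPKM of Chga in mutants, against 2.00 and 2.34 times in controls. Tac1, which enterochromaffin cells share with Tph1, stood at 19.6 and 9.28 times the FPKM of Tph1 in mutants, against 1.40 and 0.880 times in controls. In all 3 ratios both mutant libraries lay above both controls, with Chga and Tph1 themselves among the genes that fell. An unchanged gene would rise on such ratios too, and how many of all genes lie apart on them was not measured. Set against the summed granule and processing genes, Tac1 overlapped between groups, at 4.50% and 7.14% in mutants, against 7.13% and 4.37% in controls. On the same sum Penk and Cck overlapped too, while Sst, Sct and Iapp lay above both controls. The sum itself was 154.3 and 181.7 FPKM in mutants, against 304.0 and 378.7 FPKM in controls. Overlap on it therefore does not show Tac1 unchanged, and lying above does not show a rise of Sst, Sct or Iapp. That sum holds Chga and Chgb, 2 of the 5 genes of these lists that passed. None of those 5 genes passed after median ratio rescaling (limma adjusted p from 0.160 to 0.344). With the replicate number as a block all 5 passed, in a fit where 195 of all tested genes passed. In all 5 the direction held with each library left out in turn. Without mutant 1 the log2 changes were −3.21 for Tph1, −2.62 for Insl5, 2.09 for Ghrl, −2.59 for Chga and −2.83 for Chgb.

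Of 17 genes for lineage factors of endocrine cells 11 were tested and 0 passed in limma. Changes were below 0 in 6 and above in 5, against 82.6% of all tested genes below 0. An unadjusted p under 0.05 was found in 1, lower in mutants, against 4.12% of all tested genes. Hhex, a factor of somatostatin cells named after its values were seen, had 1.56 and 1.69 FPKM in mutants, against 4.31 FPKM in control 1 and 1.21 FPKM in control 2, so the groups overlapped and control 1 alone was high. The most abundant were the forkhead factors Foxa1, at 24.0 and 32.8 FPKM in mutants, against 31.8 and 36.9 FPKM in controls, and Foxa2, at 2.39 and 2.62 FPKM in mutants, against 4.60 and 4.69 FPKM in controls (log2 change −0.78, limma adjusted p = 0.825, unadjusted 0.00700).

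Receptors for the 8 peptides were mostly low in this tissue. Of 19 receptor and receptor-partner genes 8 were tested and 0 passed in limma, and 2 had an unadjusted p under 0.05, both lower in mutants, against 4.12% of all tested genes. Changes were below 0 in 7 of the 8, close to the 82.6% of all tested genes, with a median log2 change of −0.32 (−0.16 after rescaling). Named after their values were seen, the secretin receptor gene Sctr stayed at or below 0.167 FPKM in every library and the gastrin and cholecystokinin receptor gene Cckbr at or below 0.189 FPKM. The amylin receptor partner gene Ramp1 was the most abundant, at 15.3 and 17.1 FPKM in mutants, against 23.7 and 25.4 FPKM in controls. Its log2 change was −0.59 (limma adjusted p = 0.825, unadjusted 0.0126). Ramp2 had 8.85 and 12.0 FPKM in mutants, against 11.2 and 13.9 FPKM in controls. The calcitonin receptor gene Calcr, of the same list, was named after its values were seen. It stood at 0.178 FPKM in mutant 1 and at 0 in mutant 2 and both controls. The somatostatin receptor gene Sstr1, named after its values were seen, overlapped between groups at 7.34 and 12.1 FPKM in mutants, against 5.15 FPKM in control 1 and 18.6 FPKM in control 2. The substance P receptor gene Tacr1, also named after its values were seen, had 0.623 and 0.574 FPKM in mutants, against 1.12 and 0.781 FPKM in controls (unadjusted p = 0.209).

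**Figure D5:**
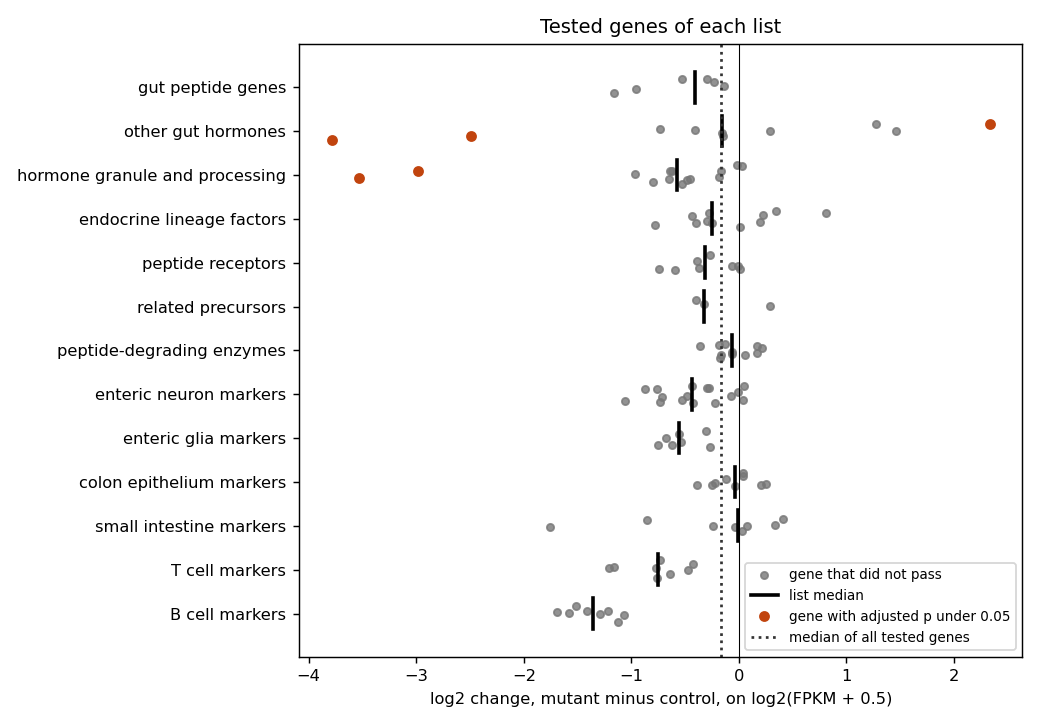
Log2 change (mutant minus control) of every tested gene of the gut peptide genes and of 12 lists; black bars are list medians, red points passed at an adjusted p under 0.05 and the dotted line is the median of all tested genes, −0.17. The 6 tested gut peptide genes lie between −1.16 and −0.14 with none red, while 5 genes of the hormone and granule lists are red.

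The authors' own comparison, a DESeq test on counts, gave log2 changes of the same sign for the 6 tested members. In the authors' deposited table the mean normalized counts were 119.5 in mutants and 216.1 in controls for Tac1 (log2 change −0.85, p = 0.122) and 12.3 in mutants and 23.0 in controls for Cck (−0.91, p = 0.668). In the authors' deposited table Sst had 306.6 in mutants and 336.6 in controls (−0.13, p = 0.677) and Sct 443.7 in mutants and 493.1 in controls (−0.15, p = 0.812). In the authors' deposited table Penk had 155.1 in mutants and 195.6 in controls (−0.34, p = 0.692) and Iapp 27.1 in mutants and 27.3 in controls (−0.01, p = 0.934), and the adjusted p was 1 for all 8 members.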

How the data were processed

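RNA from the colon piece was sequenced in 4 libraries. Tools listed in the submitters' processing notes were TopHat, Cufflinks, DESeq and bcl2fastq 1.8.4, with build mm9; roles and other versions are not given in the sources used here. Per the file headers, the authors gave FPKM with a 95% interval and a status per gene and transcript, and a coverage signal per transcript. The deposited series table holds the authors' DESeq results: a mean normalized count signal per group, a fold (the mutant mean over the control mean, a ratio), the log2 of that fold and p-values.

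Of 23699 rows, 306 without an OK status in every library were left out and rows of 1 symbol were summed (23074 symbols). Genes averaging at least 0.5 FPKM (13997) were tested as log2(FPKM + 0.5), which understates changes of low genes, with limma 3.58.1 in R 4.3.3 (variance trend, Benjamini-Hochberg at 0.05, 2 residual degrees of freedom). The fit was tested on simulated data. The median ratio factors were 0.880 and 1.01 in mutants and 1.09 and 1.04 in controls. Implied fragments are (2 FPKM / interval half-width) squared, whole within 0.05 in 86.6% to 87.6% of single-isoform genes under 50 fragments; intervals cover counting error only.

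Members and the 14 lists were chosen with earlier results of these data known. Named genes come from the members, passing genes of a list (up to 4), its 2 most abundant and 2 nearest profiles per member. Not all of the most abundant are named, and others are said to be named after their values were seen.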

Additional observations from a re-analysis of the deposited data

How the results depend on the processing

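Under 16 alternatives, Sst and Penk kept their direction and did not pass in any, with log2 changes from −0.41 to −0.12 and from −0.95 to −0.10. Cck and Tac1 stayed below 0 under all 16, passing with the replicate block (log2 changes −1.16 and −0.96 at adjusted p = 0.0245 and 0.0409), and Tac1 also without control 2. With each library left out in turn, log2 changes ran from −0.41 to −0.18 for Sst, −0.68 to 0.23 for Sct, −1.97 to −0.36 for Cck, −1.39 to −0.53 for Tac1, −0.95 to −0.10 for Penk and −0.59 to 0.32 for Iapp. Iapp was 0.0163 after median ratio rescaling and 0.0737 after quantile normalization. The count of members lying below both controls, checked after seeing the data, ran from 4 to 6. Over all genes, 9 passed, against 0 with no minimum level (1084 at an unadjusted p under 0.05), 3 after rescaling, 3 after quantile normalization, 195 with the replicate block, 0 in limma without small RNA and histone genes once the remaining genes were scaled to 1 common total per library (473 at an unadjusted p under 0.05), and 8 to 362 with a library left out, where the lone library of a group is taken to vary like the others. Same-numbered libraries did not deviate together (correlation across genes −0.002). With 2 libraries per group this cannot decide whether the numbers pair them, and the labels do not say. The cause of these differences was not tested. Depth limits Cck, Iapp and Gip, where 1 fragment in mutant 1 is worth 0.300 FPKM for Cck.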

Other observations

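Precursor genes related to the members by family were mostly below the minimum level. Of 12, 3 were tested and 0 passed in limma (0 at an unadjusted p under 0.05). Vip, the vasoactive intestinal peptide of the secretin family, made by enteric neurons, had 26.2 and 33.5 FPKM in mutants, against 30.4 and 50.2 FPKM in controls. Adm, which encodes adrenomedullin of the amylin family, had 4.15 and 5.05 FPKM in mutants, against 3.80 and 3.52 FPKM in controls. Both mutants lay above both controls, against 3.39% of all tested genes (limma unadjusted p = 0.225). Calcb, named after its values were seen, lay below both controls, against 35.1% of all tested genes. It had 0.760 and 1.11 FPKM in mutants, against 1.41 and 1.17 FPKM in controls. Tac2, the neurokinin B precursor, was at 0 in every library.

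Enzymes that degrade peptides, at the cell surface or inside cells, gave 0 passing genes of 11 tested in limma (0 at an unadjusted p under 0.05), with a median log2 change of −0.06. The meprin subunit genes led the list, with Mep1b at 189.2 and 126.5 FPKM in mutants, against 161.2 and 136.2 FPKM in controls, and Mep1a at 106.3 and 102.2 FPKM in mutants, against 101.3 and 134.4 FPKM in controls. Colon epithelium markers were abundant in all libraries. Of these markers 9 were tested and 0 passed in limma (0 at an unadjusted p under 0.05), with the carbonic anhydrase gene Car1 at 17320 and 16278 FPKM in mutants, against 15112 and 22063 FPKM in controls, and the keratin gene Krt8 at 1866 and 2108 FPKM in mutants, against 1693 and 2215 FPKM in controls.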
